A study of Mus musculus with 13 samples.

Results

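Genes of macrophages and monocytes, 10 in number, were followed through mouse mammary tumors and lungs: Arg1, Trem2, Gpnmb, F13a1, Cd14, C1qa, C1qb, C1qc, Apoe and Ly6c2. They were chosen by symbol, with earlier results of these data known. All 10 of 10 were found among the 46679 gene IDs of the deposited tables. The 13 RNA-seq libraries came from 8 female FVB mice aged 10 weeks. The tumors (3 mice) and tumor-bearing lungs (4 mice, among them the 3 tumor donors) came from mice whose inguinal mammary fat pad had received 250000 Met1 cells 2 weeks before. The normal lungs came from 4 mice without a tumor. Met1 is an established mouse mammary carcinoma line of the FVB strain, so the tumors are grafts of 1 cultured line in hosts with their own immune cells. The labels give no genotype or drug treatment for any group. Normal mammary gland was not analysed here, so every tumor value is set against lung. Lungs 6886 and 6888 of normal mice each have a library of preparation batch 1 and one of batch 2.

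Monocytes leave the blood, enter tissues and tumors, and mature there into macrophages. Along that path the monocyte antigen Ly6C falls, and genes for clearing debris, handling lipid, making complement and breaking down arginine can come up. The lung also holds its own alveolar macrophages, which live in the air spaces and have a lipid-handling program of their own. Of the 10 genes, Ly6c2 marks monocytes, F13a1 and Cd14 are shared by monocytes and macrophages, and the C1q genes, Apoe, Trem2, Gpnmb and Arg1 are commonly used to describe macrophage states in tumors.

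The promoters of 4 of these genes, and of Ly6c1, the sister gene of Ly6c2, are shown first. C1qb and C1qc are neighbours whose RNA moved together, Ly6c2 and Ly6c1 are near-copies whose RNA moved in opposite directions, and Gpnmb moved against the other 9 genes. The sequences are RefSeq's on GRCm38.p6 and run 5′ to 3′ on the gene's strand up to the base before its start, except that C1qc is printed only as far as the edge of its GENCODE gene. Gpnmb is chr6:49036268-49036517 (+ strand), C1qb is chr4:136886201-136886450 (− strand), C1qc is chr4:136893066-136893164 (− strand), Ly6c2 is chr15:75111972-75112221 (− strand) and Ly6c1 is chr15:75048838-75049087 (− strand). Capitals mark GAGGAA or its other strand TTCCTC, a core bound by PU.1 and other ETS factors.
C1qb: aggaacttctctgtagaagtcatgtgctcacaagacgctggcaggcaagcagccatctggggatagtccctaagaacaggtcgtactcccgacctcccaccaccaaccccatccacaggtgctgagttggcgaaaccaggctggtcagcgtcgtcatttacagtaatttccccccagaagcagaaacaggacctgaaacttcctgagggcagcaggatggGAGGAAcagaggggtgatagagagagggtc
C1qc: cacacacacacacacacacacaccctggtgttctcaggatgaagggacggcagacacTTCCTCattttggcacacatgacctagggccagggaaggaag
Gpnmb: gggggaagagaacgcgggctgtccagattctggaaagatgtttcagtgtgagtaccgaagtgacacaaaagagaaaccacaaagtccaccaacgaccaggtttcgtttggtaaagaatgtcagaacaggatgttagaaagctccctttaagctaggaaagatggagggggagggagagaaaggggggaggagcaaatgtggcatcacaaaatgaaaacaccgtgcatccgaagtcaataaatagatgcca
Ly6c2: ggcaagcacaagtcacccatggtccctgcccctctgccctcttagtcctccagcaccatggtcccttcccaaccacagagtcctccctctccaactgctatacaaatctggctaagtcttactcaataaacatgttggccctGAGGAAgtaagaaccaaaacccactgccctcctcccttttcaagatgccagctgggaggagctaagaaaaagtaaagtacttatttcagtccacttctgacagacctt
Ly6c1: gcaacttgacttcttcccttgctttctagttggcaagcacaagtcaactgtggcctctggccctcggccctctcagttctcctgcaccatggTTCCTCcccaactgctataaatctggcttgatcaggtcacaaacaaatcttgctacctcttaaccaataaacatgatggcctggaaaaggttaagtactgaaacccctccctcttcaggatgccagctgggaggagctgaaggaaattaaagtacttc

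Promoters were matched for 7 of the 10 genes. GAGGAA in either strand lay in the 250 bases before the start in 6 of these 7, Gpnmb having none, and in 23.25% of 32851 mouse promoter windows of that length. These matches describe letters and not binding.

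The libraries held 8321037 to 13982903 estimated counts. Protein-coding genes took 45.6 to 69.5% of them. The gene Rn7s1 alone took 5.55 to 15.1% in batch 1 and 19.5 to 37.8% in batch 2. Levels are given as CPM, counts scaled by library size and TMM factor. A gene was called where edgeR's quasi-likelihood test gave an adjusted p below 0.05 over all genes tested. Markers of alveolar type 2 cells summed to 61.5 to 107 CPM in tumors and 6084 to 14509 CPM in lungs. Those of mammary and tumor epithelium summed to 991 to 1335 CPM in tumors and 358 to 578 CPM in lungs. Both sums go with the tissue labels. Of 9 such epithelial markers tested against normal lung, 6 were called higher in tumors, 1 lower and 2 not called. Markers of adipocytes, cells of the fat pad in which the tumors grew, summed to 94.7 to 246 CPM in tumors and 3.67 to 13.8 CPM in lungs, with 4 of 4 tested called higher in tumors than in normal lung (median log2 fold change 4.35). Their part in the levels of the 10 genes was not tested. The general macrophage genes Csf1r, the receptor of the macrophage growth factor CSF1, and Adgre1, which encodes F4/80, were present in every library, Csf1r at 56.5 to 72.2 CPM in tumors and 47.1 to 86.9 CPM in lungs. In bulk RNA, fewer cells of a type and less RNA per cell cannot be told apart, and the cell that made each RNA was not measured.

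Tumors were compared with normal lung within batch 2, with 3 tumors against 4 lungs. All 10 genes were called, 9 higher and 1 lower in tumors, where 56.8% of the 18038 genes tested were called (29.4% higher and 27.4% lower). The median log2 fold change of the 10 was 2.95, and that of all genes tested was −0.02. For 7 genes (F13a1, Cd14, C1qa, C1qb, C1qc, Arg1 and Trem2) all 3 tumors lay above all 10 lung libraries, and for Gpnmb all 3 lay below. Among all 18796 genes with a level, 22% were above and 22% below in this way. Apoe and Ly6c2 each had 2 of 3 tumors above every lung library.

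**Figure D1:**
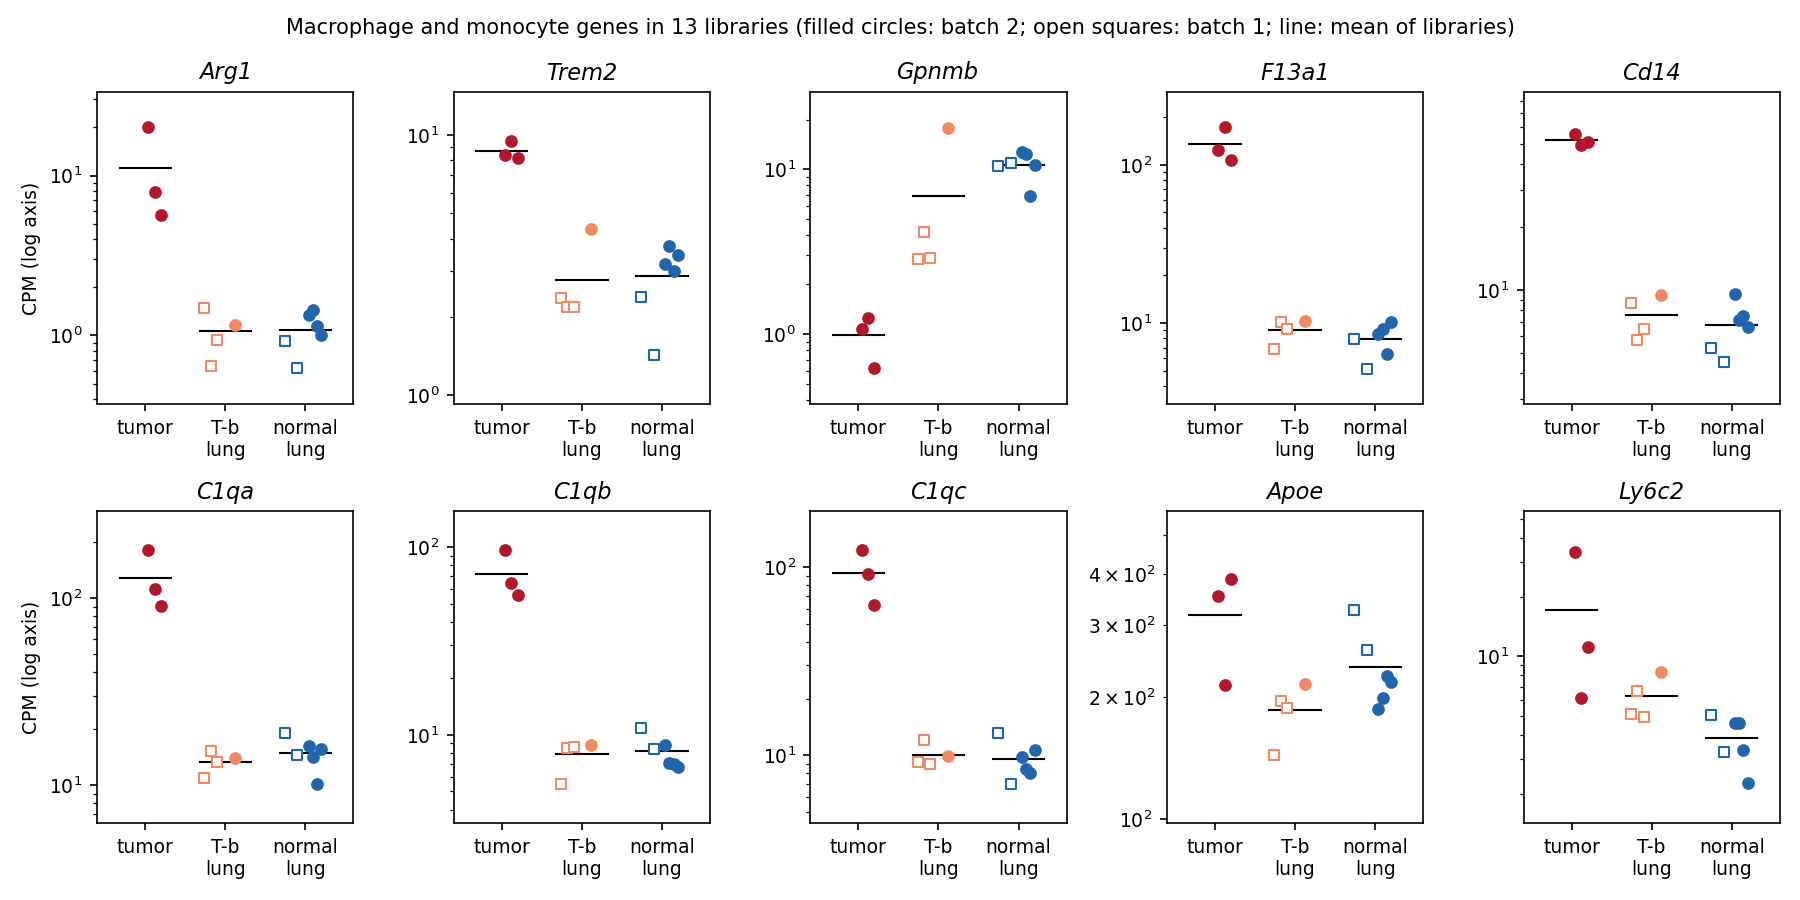
Level of each of the 10 genes in every library (CPM, log axis) in breast tumors, tumor-bearing lungs (T-b lung) and normal lungs; each point is a library, filled circles are batch 2, open squares are batch 1, and the line is the mean of the libraries shown. The 3 tumors lie above all 10 lung libraries for 7 genes and below them for Gpnmb, and Apoe and Ly6c2 overlap.

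The complement component C1q is built from 3 chains, encoded by C1qa, C1qb and C1qc, and starts the classical pathway by binding antibody or dying cells. In tissues macrophages are its main source. The 3 genes lie side by side on the − strand of chromosome 4 (GRCm38) within 18675 bases, C1qb at chr4:136880129-136886187, C1qc at chr4:136889804-136893065 and C1qa at chr4:136895917-136898803. C1qa stood at 180 CPM in tumor 6877, 111 in tumor 6880 and 91.1 in tumor 6881, and at 10.1 to 19.0 in the 10 lung libraries (median 14.3). The lowest tumor was 4.79 times the highest lung library. C1qb stood at 96.2, 64.8 and 55.7 CPM in tumors 6877, 6880 and 6881 and at 5.47 to 10.9 in the lungs (median 8.50). C1qc stood at 123, 92.4 and 62.9 CPM in the same tumors and at 7.02 to 13.04 in the lungs (median 9.51). For each chain tumor 6877 was the highest and tumor 6881 the lowest, and no tumor overlapped with any lung.

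Against normal lung of batch 2 the log2 fold changes were 3.19 for C1qa (SE 0.25, adjusted p = 8.64e-06), 3.28 for C1qb (SE 0.21, adjusted p = 2.37e-06) and 3.33 for C1qc (SE 0.23, adjusted p = 3.34e-06), edgeR. These are close to a 10-fold difference of mean CPM, at 9.10, 9.71 and 10.0 times for the 3 chains. The chains kept like shares of their summed TPM, a level per transcript length. C1qa took 45.1 ± 1.79% of the sum in tumors (SD, n = 3) and 46.3 ± 2.70% in the lungs (SD, n = 10 libraries). C1qb took 25.6 ± 1.39% and 25.7 ± 2.80%, and C1qc 29.4 ± 2.25% and 28.01 ± 3.25%. Each difference between tissues was smaller than the SD of either.

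**Figure D2:**
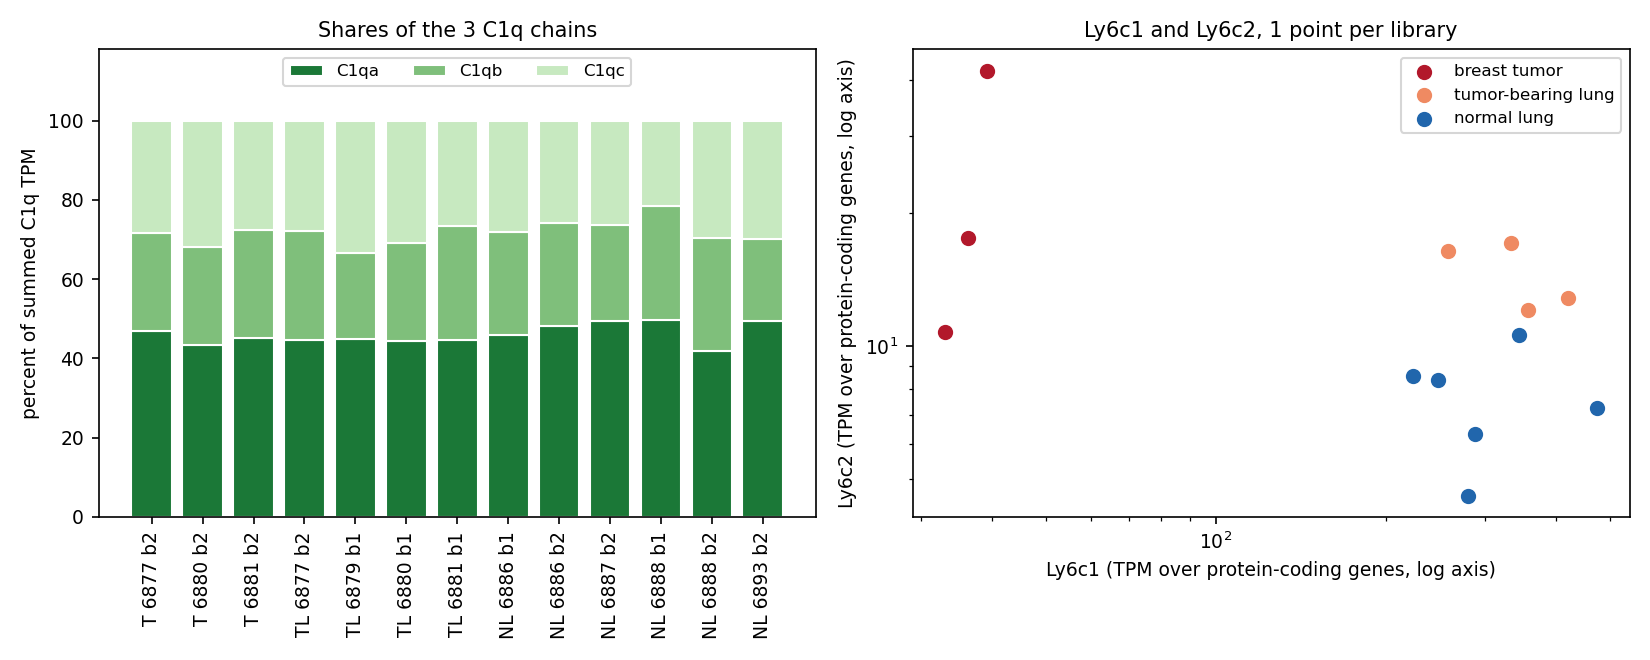
Left, percent of the summed TPM of C1qa, C1qb and C1qc in each library (T, tumor; TL, tumor-bearing lung; NL, normal lung; mouse number; b1 or b2, batch). Right, TPM of Ly6c2 against Ly6c1 over protein-coding genes, both axes log, 1 point a library; the C1q shares are alike in tumors and lungs, while Ly6c2 made up 24.5 to 51.7% of the Ly6c pair in tumors and 1.501 to 5.99% in lungs.

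Of 16 other complement genes tested in this comparison, 4 were higher and 7 lower, with a median log2 fold change of −0.49. None of its direct partners named here was called higher. C1ra, which encodes a protease bound to C1q, fell by 0.95 on the log2 scale (SE 0.20, adjusted p = 0.00276), and C1s1, which encodes the next protease, had a log2 fold change of −0.73 (SE 0.31, adjusted p = 0.0699), which was called in 5 of 16 alternatives, among them without tumor 6877 (−1.11, adjusted p = 0.0192), with voom (adjusted p = 0.0449) and among protein-coding genes alone (adjusted p = 0.0378). Serping1, which encodes the inhibitor of both, fell by 1.44 (SE 0.16, adjusted p = 6.21e-05). Cfb, of the alternative pathway, rose by 2.82 (SE 0.26) and C3ar1, the receptor of the fragment C3a on myeloid cells, by 3.38 (SE 0.32). Cd93, a receptor that endothelial cells carry, fell by 3.37 (SE 0.19). Against tumor-bearing lung, C1ra (−0.57, edgeR adjusted p = 0.114) and C1s1 (−0.09, adjusted p = 0.852) were not called, and Serping1 was (−1.20, adjusted p = 0.00233).

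F13a1 encodes the A subunit of coagulation factor XIII, a transglutaminase that cross-links fibrin. It lies at chr13:36867178-37050244 (− strand) and stood at 124, 173 and 108 CPM in tumors 6877, 6880 and 6881. The 10 lung libraries held 5.15 to 10.2 CPM (median 8.85), so that the lowest tumor was 10.5 times the highest lung library. The log2 fold change against normal lung was 3.98 (SE 0.22, adjusted p = 1.17e-06), the widest rise of the 10 genes, and 1.84% of all genes tested rose at least as far. Platelets also carry this subunit; 7 platelet markers summed to 3.11 to 19.0 CPM in tumors and 32.6 to 135 CPM in lungs, with 0 of 6 tested higher in tumors, and none was at 0 in every tumor. Of 9 other genes of the transglutaminase and coagulation list, 3 were higher and 4 lower (median 0.24). Plau, the urokinase protease, rose by 2.10 (SE 0.23), its receptor gene Plaur fell by 1.75 (SE 0.22) and F7, which encodes factor VII, fell by 4.58 (SE 0.32).

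Cd14 encodes the coreceptor that hands lipopolysaccharide to Tlr4. It had the most even level among tumors, 55.8, 49.2 and 51.0 CPM in tumors 6877, 6880 and 6881, a coefficient of variation of 6.57%. The lungs held 4.53 to 9.60 CPM (median 6.93), and the lowest tumor was 5.12 times the highest of them. The log2 fold change against normal lung was 2.75 (SE 0.16, adjusted p = 1.77e-06). The receptor itself was not called: Tlr4 stood at 23.2 ± 7.53 CPM in tumors (SD, n = 3) and 20.9 ± 4.19 CPM in normal lungs of batch 2 (SD, n = 4), a log2 fold change of 0.15 (SE 0.24, adjusted p = 0.628). Of 10 genes of the lipopolysaccharide receptor pathway, 3 were higher and 1 lower (median 0.15). Lbp, the serum protein that binds lipopolysaccharide, rose by 1.61 (SE 0.20), Tlr2, the receptor of bacterial lipoproteins, by 0.95 (SE 0.20), and the adaptor gene Ticam2 fell by 0.91 (SE 0.28, adjusted p = 0.0219). The Ticam2 call was lost without tumor 6881, normal lung 6886 or normal lung 6893 (adjusted p = 0.0517 to 0.0674).

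Arg1 encodes arginase, which splits arginine into ornithine and urea and is a common mark of alternatively activated and tumor macrophages. It lies at chr10:24915221-24927484 (− strand). Tumor 6877 held 20.0 CPM, tumor 6880 held 7.88 and tumor 6881 held 5.69, against 0.62 to 1.49 in the lungs (median 1.07). The tumors spread over 3.51 times, but the lowest was 3.82 times the highest lung library. The log2 fold change against normal lung was 3.16 (SE 0.44, adjusted p = 0.000247), and 2.43 without tumor 6877 (adjusted p = 0.000214). Other genes of arginine metabolism were higher in 8 and lower in 3 of 13 (median 1.06). Ass1, which makes argininosuccinate on the way to arginine, rose by 2.50 (SE 0.17), Srm, which makes spermidine, by 2.59 (SE 0.21) and Slc7a1, an arginine transporter, by 1.98 (SE 0.17). Arg2, the mitochondrial arginase, fell by 1.301 (SE 0.44, adjusted p = 0.0307) at 0.72 ± 0.19 CPM in tumors and 1.82 ± 0.71 CPM in normal lungs of batch 2. Its call was lost in 6 of 16 alternatives, with adjusted p = 0.0674 to 0.0901 without tumor 6877, tumor 6881, normal lung 6887 or normal lung 6888. Nos2, which uses arginine to make nitric oxide, had a log2 fold change of −0.16 (SE 0.58, adjusted p = 0.827).

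Trem2 encodes a receptor for lipids and lipoproteins that signals through Tyrobp. It lies at chr17:48346401-48354147 (+ strand) and stood at 8.38, 9.52 and 8.19 CPM in tumors 6877, 6880 and 6881, and 1.42 to 4.35 in the lungs (median 2.68). The tumors were nearly level with each other, and the lowest was 1.88 times the highest lung library. The log2 fold change against normal lung was 1.39 (SE 0.21, adjusted p = 0.000472), which 14.4% of all genes tested equalled or passed. Tyrobp had a log2 fold change of 0.39 (SE 0.20, adjusted p = 0.133), which was called without tumor 6880 (adjusted p = 0.0400). Tyrobp and Trem2 also moved with batch in normal lungs: Tyrobp stood at 11.4 and 11.7 CPM in batch 1 and 34.1 to 49.8 in batch 2, and Trem2 at 1.42 and 2.38 against 2.99 to 3.73. What part batch has in these levels was not tested.

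Apoe, which encodes a carrier of lipids and a ligand of Trem2, was the most abundant of the 10 genes everywhere. It lies at chr7:19696109-19699188 (− strand). Tumor 6877 held 354 CPM, tumor 6880 held 214 and tumor 6881 held 389, and the lungs held 144 to 327 (median 207). Tumor 6880 lay inside the lung range. The log2 fold change against normal lung was 0.63 (SE 0.21, adjusted p = 0.0301), which 30.2% of genes tested equalled or passed. The call was lost in 10 of 16 alternatives, with adjusted p = 0.0975 without tumor 6877, 0.102 without tumor 6881 and 0.0530 to 0.0824 without each of the 4 normal lungs.

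Gpnmb, a glycoprotein of lysosome-rich macrophages and pigment cells, went the other way. It lies at chr6:49036546-49070929 (+ strand). It stood at 1.08, 1.25 and 0.62 CPM in tumors 6877, 6880 and 6881 and at 2.86 to 17.8 in the lungs (median 10.5), so every tumor was below every lung. The mean of normal lungs of batch 2 was 10.8 times that of tumors, a log2 fold change of −3.42 (SE 0.35, adjusted p = 4.24e-05). Markers of alveolar macrophages, 11 genes, were mostly lower in tumors too, with 8 lower and 1 higher. Their sum was 15.3 to 49.0 CPM in tumors, 458 to 738 CPM in normal lungs of batch 2, and 193 to 275 CPM in those of batch 1. Gpnmb did not differ in this way between batches, at 6.85 to 12.7 CPM in normal lungs of batch 2 and 10.5 and 10.9 CPM in those of batch 1. None of the 11 was at 0 in all 3 tumors. Their part in the Gpnmb difference was not tested.

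In the list of Trem2 pathway and lipid-associated macrophage genes, 5 of 24 were higher and 10 lower (median −0.15). Spp1, which encodes the secreted protein osteopontin, rose by 4.67 (SE 0.21) to 2015, 1321 and 1739 CPM in tumors 6877, 6880 and 6881 against 21.8 to 81.6 CPM in the lungs. Cd63, of lysosomes and exosomes, rose by 1.41 (SE 0.15). Abcg1, a cholesterol exporter, fell by 3.05 (SE 0.15).

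Ly6c2 encodes the Ly6C antigen of inflammatory monocytes. It lies at chr15:75108158-75111970 (− strand). Tumor 6877 held 34.0 CPM, tumor 6881 held 11.2 and tumor 6880 held 6.16, and the lungs held 2.28 to 8.31 (median 4.77). The tumors differed from each other by 5.51 times, more than for any other of the 10 genes, and tumor 6880 lay inside the lung range. Against normal lung of batch 2 (3.70 ± 1.12 CPM, SD, n = 4) the log2 fold change was 2.19 (SE 0.53, adjusted p = 0.00594), a call lost on the log2(TPM + 1) scale (adjusted p = 0.0562). Without tumor 6877 it was 1.21 (adjusted p = 0.0235).

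The near-copy Ly6c1 makes the count of Ly6c2 uncertain. The longest coding transcripts share 802 of 822 aligned bases (97.57%), and 164 of 748 windows of 75 bases of Ly6c2 (21.93%), the length of a read, also occur in Ly6c1. The other 9 genes share no such window with another gene. The promoters printed above differ more, with 164 of 228 aligned bases the same (71.93%). Ly6c1 fell by 2.48 on the log2 scale (SE 0.20, adjusted p = 9.10e-06), from 55.3 to 70.0 CPM in normal lungs of batch 2. It stood at 14.6, 8.74 and 10.6 CPM in tumors 6877, 6880 and 6881, and at 55.3 to 99.1 CPM over all 10 lung libraries. Per length, Ly6c2 made up 51.7, 24.5 and 32.6% of the pair in these tumors and 1.501 to 5.99% in the lungs. Endothelial cells also express Ly6c1, and 8 of 8 endothelial markers were lower in tumors, with a sum of 81.3 to 119 CPM against 1715 to 3578 CPM in lungs. The part of these cells in the Ly6c1 level was not tested.

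Ccr2, the chemokine receptor of the same monocytes, rose by 1.57 (SE 0.17, adjusted p = 6.63e-05), from 6.50 to 9.40 CPM in normal lungs of batch 2 to 23.3, 26.1 and 22.1 CPM in tumors 6877, 6880 and 6881. The wider list of 18 monocyte genes was split, with 6 higher and 6 lower (median −0.31). Ace and Klf4, which other lung cells also express, fell by 4.53 (SE 0.23) and 3.99 (SE 0.23). Among chemoattractants and growth factors, 6 of 10 tested were higher and 2 lower (median 1.42). Ccl8, a ligand that draws monocytes, stood at 92.2 ± 11.5 CPM in tumors and 0.28 ± 0.09 CPM in normal lungs of batch 2, a log2 fold change of 8.35 (SE 0.24). Cx3cl1, the ligand of Cx3cr1, rose by 2.05 (SE 0.16), and Il34, a second ligand of Csf1r, fell by 2.13 (SE 0.32).

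**Figure D3:**
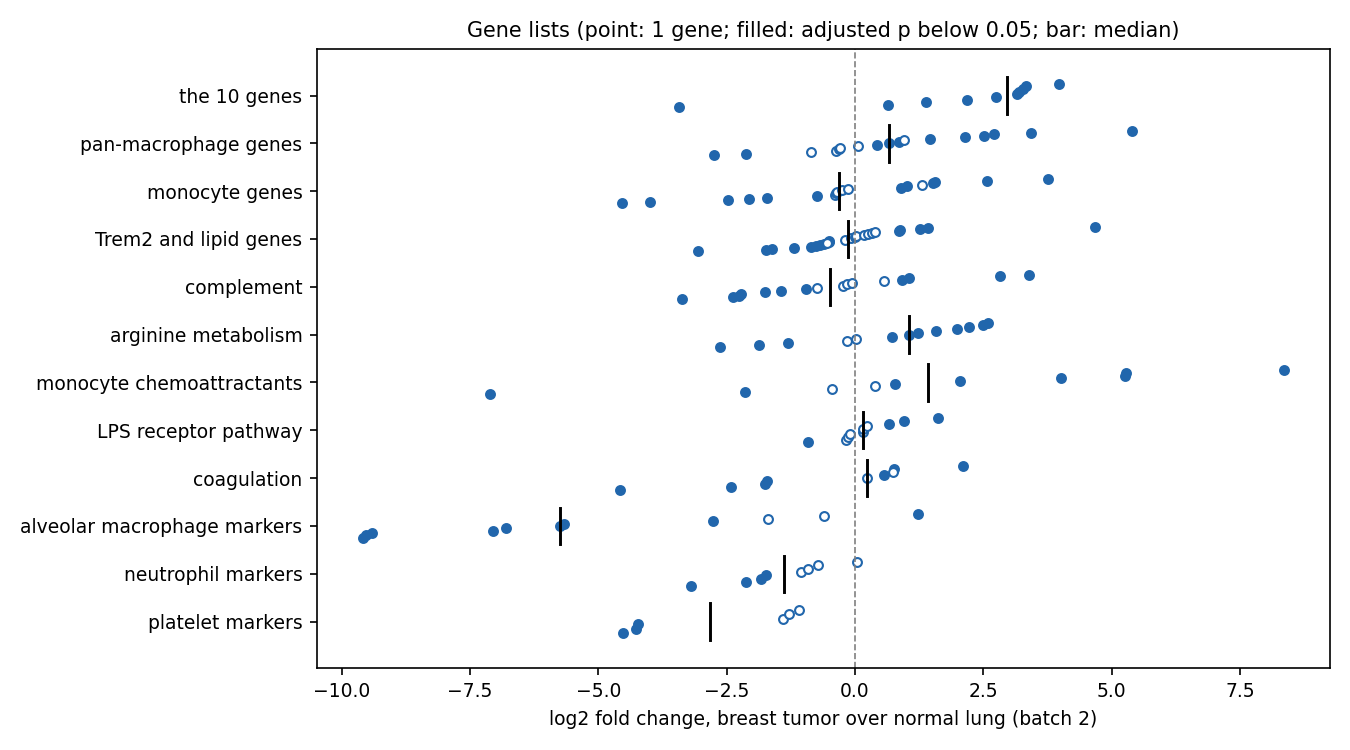
Log2 fold change of breast tumor over normal lung (batch 2) for the 10 genes and the members of 8 gene lists and 3 marker lists; each point is a gene, filled where the adjusted p was below 0.05, and the bar is the median. The 10 genes have a median of 2.95, the pan-macrophage list 0.67, and the alveolar macrophage markers −5.74.

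General macrophage genes were set beside the 10. Of 17 pan-macrophage genes, 9 were higher and 2 lower in tumors (median 0.67). Csf1r rose by 0.43 (SE 0.13, adjusted p = 0.0168), a call lost in 6 of 16 alternatives, among them without normal lung 6888 (adjusted p = 0.0515), and Adgre1 by 0.87 (SE 0.16, adjusted p = 0.00139). Aif1, an actin-binding protein of myeloid cells, rose by 3.44 (SE 0.31). Mertk, a receptor for dying cells, fell by 2.74 (SE 0.19). Against tumor-bearing lung, Csf1r (0.22, edgeR adjusted p = 0.431) and Adgre1 (0.64, adjusted p = 0.0520) were not called. The mean log2 CPM of the 17 was 4.59 to 4.71 in tumors and 3.82 to 4.005 in normal lungs of batch 2, while their summed CPM was 806 to 1028 in tumors and 2275 to 2832 in those lungs, so the list went up or down with the way it was added.

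Each gene's log2 CPM was then taken relative to the mean of these 17 in the same library. In this measure 7 genes were higher in tumors than in normal lungs of batch 2: F13a1 by 3.17, C1qc by 2.49, C1qb by 2.45, C1qa by 2.36, Arg1 by 2.05, Cd14 by 1.96 and Trem2 by 0.57. Gpnmb was lower by a difference of −4.002. For these 8 genes an exact two-sided permutation test over the 3 tumors and 4 lungs gave p = 0.0286, the smallest that its 35 arrangements allow. Ly6c2 differed by 1.08 (exact permutation p = 0.114; 0.43 without tumor 6877 and 1.64 without tumor 6880) and Apoe by −0.19 (exact permutation p = 0.629). These were 10 tests, and their p was not adjusted. Apoe, at 3.61 ± 0.50 in tumors (SD, n = 3) and 3.80 ± 0.17 in lungs (SD, n = 4), differed by less than its spread.

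**Figure D4:**
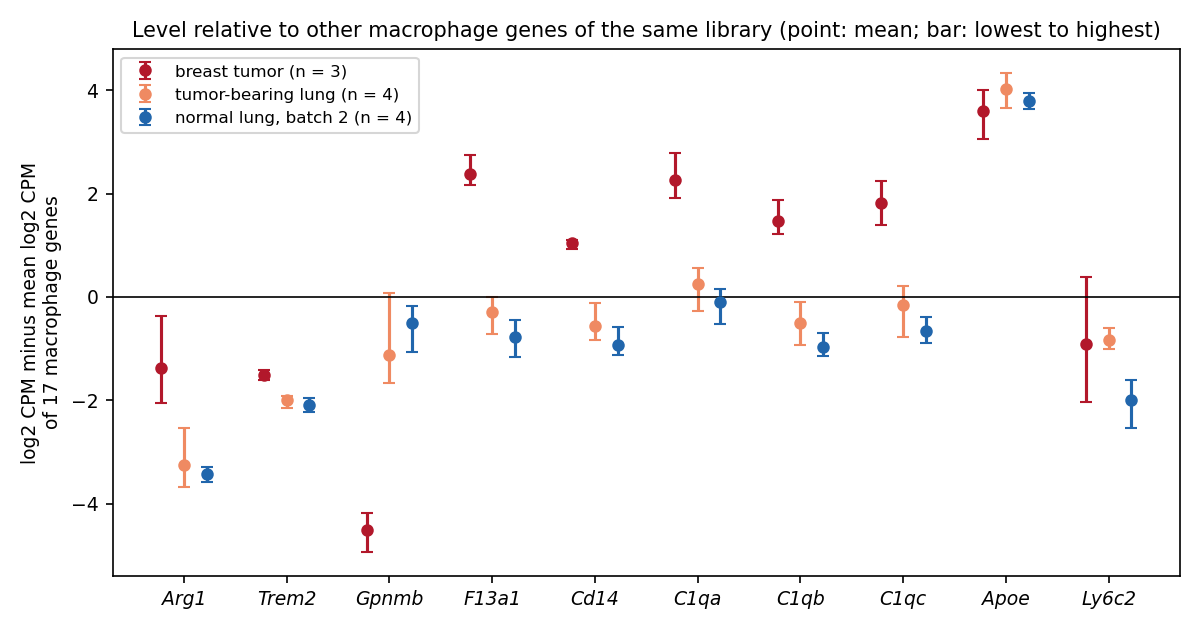
Log2 CPM of each gene minus the mean log2 CPM of 17 general macrophage genes in the same library, for 3 breast tumors, 4 tumor-bearing lungs and the 4 normal lungs of batch 2; points are means and bars run from the lowest to the highest library. Tumors stand apart from normal lungs for 8 genes, and Apoe and Ly6c2 overlap.

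Between genes, levels were compared per length, as TPM over protein-coding genes. In tumors the order of mean TPM was Apoe (638 ± 167, SD, n = 3), C1qa (193 ± 41.4), C1qc (126 ± 30.7), C1qb (109 ± 16.9), Cd14 (56.8 ± 6.16), F13a1 (52.8 ± 20.6), Ly6c2 (23.5 ± 16.5), Trem2 (12.3 ± 2.95), Arg1 (12.02 ± 6.15) and Gpnmb (0.73 ± 0.29). The means of C1qc and C1qb, of Cd14 and F13a1, and of Ly6c2, Trem2 and Arg1 did not differ beyond the larger SD. Within every tumor, though, C1qc was above C1qb and Ly6c2 above Arg1, while the other pairs changed order between tumors. In normal lungs of batch 2 Apoe (528 ± 59.1 TPM, SD, n = 4) and C1qa (27.4 ± 5.50) also led, Gpnmb was in the sixth place (10.0 ± 2.44), and F13a1 (4.11 ± 0.85) and Arg1 (1.75 ± 0.25) were the lowest.

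Over all 13 libraries and 13631 genes, those with the mean-centred log2 CPM profile nearest to the C1q chains were Psmb8 (root mean square difference 0.20), Galnt10 (0.21), Slc9a3r1 (0.21), Irgm1 (0.22) and Cd276 (0.22). Nearest to Arg1 were Npm3 (0.28), Atp5h (0.31), Pafah1b3 (0.33), Mrpl12 (0.33) and Npm1 (0.34), and nearest to Ly6c2 were Rpp38 (0.41), Gbp11 (0.42), Epsti1 (0.44), Tmem37 (0.44) and H2-Q7 (0.44). The 13 libraries include repeat libraries and tissues of the same mice, and the difference between tumor and lung dominates these profiles.

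Tumors were also compared with tumor-bearing lungs, in a fit of 11 libraries with a batch term. Of the 10 genes, 9 were called, 8 higher and 1 lower, where 46.3% of 18297 genes were called (22.6% higher and 23.7% lower). The median was 2.74, beside −0.10 for all genes. The log2 fold changes were 3.56 for F13a1 (SE 0.30), 3.31 for C1qb (SE 0.32), 3.28 for C1qa (SE 0.30), 3.24 for C1qc (SE 0.34), 3.05 for Arg1 (SE 0.63), 2.42 for Cd14 (SE 0.23), 1.01 for Trem2 (SE 0.32, adjusted p = 0.0211), 0.87 for Apoe (SE 0.29, adjusted p = 0.0299) and −3.39 for Gpnmb (SE 0.56). Ly6c2 was not called, at 1.35 (SE 0.61, adjusted p = 0.0931). This comparison shares its tumors with the one against normal lung, so the values are given side by side and not as a repeat.

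Tumor and lung of the same mouse were available for 3 mice. In log2 CPM the tumor exceeded its own lung by 3.57, 4.06 and 3.54 for F13a1 in mice 6877, 6880 and 6881, by 3.67, 2.86 and 2.77 for C1qa, and by 2.54, 3.05 and 2.93 for Cd14. Arg1 exceeded it by 3.92, 3.31 and 2.40 and Trem2 by 0.92, 2.04 and 1.83. The differences for Ly6c2 were 2.01, −0.12 and 1.15, so tumor 6880 did not exceed its lung. Those of Apoe were 0.72, 0.13 and 1.05, and those of Gpnmb −3.85, −1.62 and −1.95. Only mouse 6877 has both tissues in batch 2. With the mouse as a block on the 6 libraries of these mice, the Apoe call was lost (log2 fold change 0.58, adjusted p = 0.137). Without tumor-bearing lung 6877 the Trem2 call was lost (adjusted p = 0.102), as it was without normal lung 6886 (adjusted p = 0.0504). Without tumor-bearing lung 6877 the value of Gpnmb was −1.87 (adjusted p = 0.0124). The Apoe call was lost without tumor 6877 or 6881 or normal lung 6886, 6887 or 6893 (adjusted p = 0.0610 to 0.0830). Ly6c2 was called without tumor 6880 (1.75, adjusted p = 0.0194), and its value was 0.39 without tumor 6877 (adjusted p = 0.520). Without tumor 6877 the value of Arg1 was 2.36 (adjusted p = 0.00351).

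**Figure D5:**
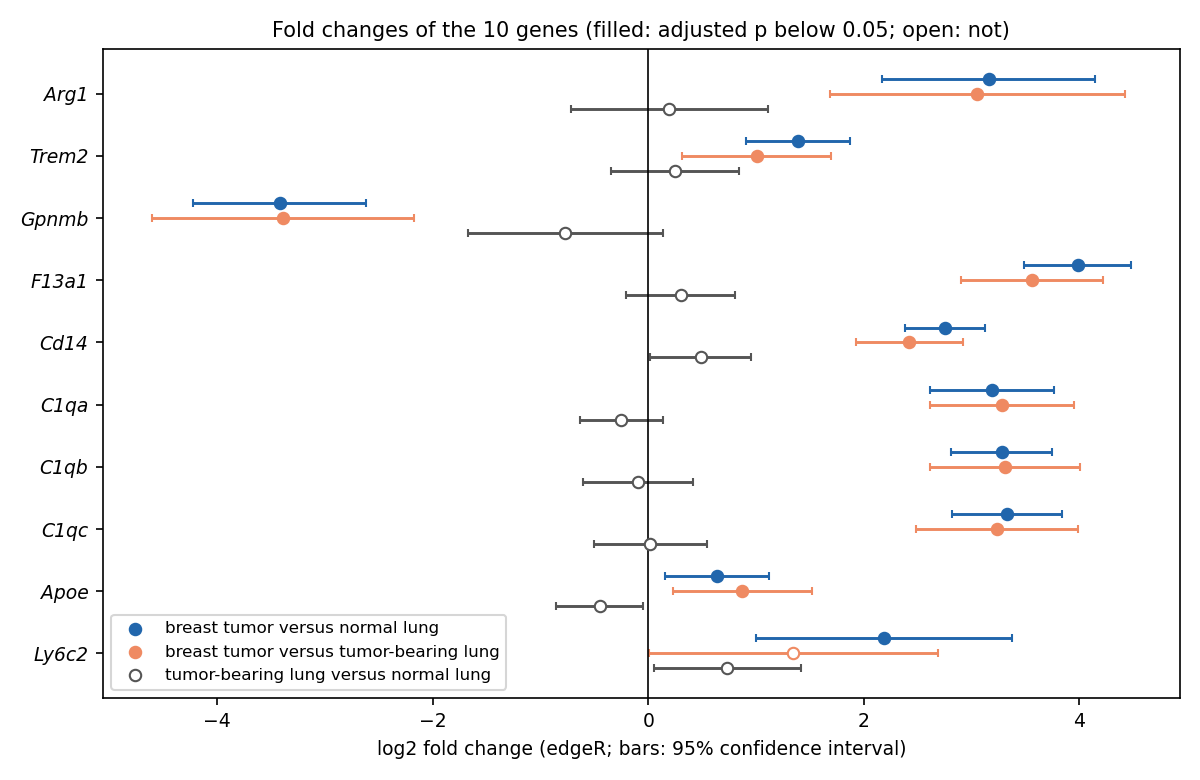
Log2 fold change (edgeR, bars are 95% confidence intervals) of the 10 genes in the comparisons of breast tumor with normal lung, breast tumor with tumor-bearing lung, and tumor-bearing with normal lung; filled points had an adjusted p below 0.05. The values of tumor-bearing against normal lung lie between −0.77 and 0.73, and none was called.

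The series was designed to ask how a distant mammary tumor affects the lung. For tumor-bearing against normal lung, with 4 against 4 mice and a batch term, 0 of the 10 genes were called by edgeR, where 0.0359% of 16727 genes (6 genes) were called, 0.012% higher and 0.0239% lower. At an unadjusted p below 0.05, 3 of the 10 were found (Cd14, Apoe and Ly6c2) and 2342 genes in all; voom also called 0 of the 10, and DESeq2 called 0 of the 8 for which it gave an adjusted p (it gave none for Arg1 and Trem2). None of the 10 had all 4 tumor-bearing lungs above or below all 6 normal libraries, as 1.61% and 1.9% of genes had. The median log2 fold change was 0.11 for the 10 genes and 0.01 for all genes. The 95% confidence intervals were −0.64 to 0.14 for C1qa, −0.61 to 0.42 for C1qb, −0.51 to 0.54 for C1qc, −0.20 to 0.80 for F13a1 and −0.72 to 1.11 for Arg1.

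Ly6c2 had the highest value of the 10 in this comparison, 0.73 (SE 0.30, 95% confidence interval 0.05 to 1.42, adjusted p = 0.333). It stood at 8.31, 5.10, 6.69 and 4.93 CPM in tumor-bearing lungs 6877, 6879, 6880 and 6881 and at 2.28 to 5.06 in the 6 normal libraries. So 3 of 4 tumor-bearing lungs were above every normal library, lung 6879 only narrowly. The sign of Ly6c2 was positive in 20 of 20 alternatives (0.02 to 1.17), which refit the same lungs and are not independent. The values within batches were 0.44 in batch 1 and 1.16 in batch 2, which holds 1 tumor-bearing lung. Ccr2 stood at 10.9, 10.1, 20.0 and 13.8 CPM in the same lungs and 6.50 to 9.51 in the normal libraries. All 4 were above all 6, as for 1.61% of genes, and the log2 fold change was 0.61 (SE 0.25, adjusted p = 0.321). Neutrophil markers had the same direction between groups, summing to 68.2 to 172 CPM in tumor-bearing lungs and to 20.8 to 84.7 CPM in normal libraries. In tumor-bearing lungs 6877, 6879, 6880 and 6881 the sums were 172, 166, 74.7 and 68.2 CPM, an order unlike that of Ccr2. These markers had 0 of 7 called but 7 of 7 positive, with no list member at 0 in all tumor-bearing lungs, and their part was not tested.

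Cd14 had a log2 fold change of 0.49 (SE 0.21, adjusted p = 0.344), with 9.47, 8.70, 5.79 and 6.52 CPM in tumor-bearing lungs 6877, 6879, 6880 and 6881 and 4.53 to 9.60 in normal libraries. Pooled over batches, these ranges overlap almost fully. In batch 1, however, tumor-bearing lungs 6879, 6880 and 6881 were all above the normal lungs (4.53 and 5.29 CPM). In batch 2, tumor-bearing lung 6877 lay inside the normal range (6.66 to 9.60 CPM). Within batches Cd14 differed by 0.53 in batch 1 and 0.29 in batch 2. Apoe differed by −0.45 (SE 0.18, adjusted p = 0.320), by −0.72 in batch 1 and 0.06 in batch 2.

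Gpnmb split by batch. It stood at 2.86, 4.18 and 2.90 CPM in tumor-bearing lungs 6879, 6880 and 6881 of batch 1, below the 10.5 and 10.9 of the normal lungs of that batch. Tumor-bearing lung 6877 of batch 2 held 17.8 CPM, above the 6.85 to 12.7 of its normal lungs. The log2 fold change was −0.77 over both batches (SE 0.40, adjusted p = 0.423), −1.66 in batch 1 (adjusted p = 0.0716) and 0.74 in batch 2. Without tumor-bearing lung 6877 it was −1.66 and called (adjusted p = 0.0333). That fit has no tumor-bearing lung in batch 2, so it rests on the same batch 1 lungs and is not a second result. The alveolar macrophage markers summed to 623 CPM in tumor-bearing lung 6877 and to 130 to 187 CPM in the 3 of batch 1, where the normal lungs had 193 to 275. Their part in this split was not tested.

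None of the genes in the complement, Trem2 pathway, arginine, monocyte, pan-macrophage, chemoattractant, lipopolysaccharide and coagulation lists was called between tumor-bearing and normal lung. The medians of the complement and monocyte lists were −0.27 and 0.26. The 2 normal lungs sequenced in both batches give the size of a repeat and of a change of batch together, which cannot be told apart. From batch 1 to batch 2, Cd14 moved by 0.84 and 0.72 in mice 6886 and 6888, and Apoe by −0.81 and −0.21. Between their libraries the 10 genes moved by −0.81 to 0.99 on the log2 scale, with a median size of 0.35, and all genes by a median size of 0.44.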

How the data were processed

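Total RNA of 20 mg of snap-frozen tumor or lung was depleted of ribosomal RNA, made into libraries from 100 ng and sequenced with single reads of 75 bases, per the labels' protocols. Salmon, DESeq2 1.18.1 and mm10 are named in the submitters' processing notes. The authors deposited estimated counts and TPM per gene ID, whose ratio was constant but for 1 factor a library. GENCODE M21 named 46201 IDs and left 478 unnamed. Counts were rounded and tested by quasi-likelihood with edgeR 4.0.16 in R 4.3.3, after filterByExpr and TMM scaling, with Benjamini-Hochberg adjustment at 0.05. log2 CPM used a prior count of 2.

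Protein-coding genes held 1.76 to 6.98% of the deposited TPM, so TPM was rescaled so that they sum to the usual TPM total, which keeps the order within a library. Tumors and normal lungs were compared in batch 2, and the other comparisons used 1 library per mouse and tissue with a batch term, the batch 1 library standing for normal mice 6886 and 6888. Alternatives used limma 3.58.1, DESeq2 1.42.0, other filters and scalings, a block for the mouse and each library left out. Tumors and lungs with the same number come from the same mouse, and their residuals correlated across genes at 0.179 (mouse 6877), 0.0355 (6880) and −0.133 (6881). Data were also simulated at these library sizes, with few genes changed, none of them low in counts, and no batch effect. The share of changed genes that edgeR recovered was 28% at a log2 fold change of 1 and 83% at 2 for tumor against normal lung (18038 genes). It was 8% and 62% against tumor-bearing lung (18297 genes) and 48% and 90% between lungs (16727 genes). Far more genes were called in the real tumor comparisons than were changed here, so these shares do not give the recovery there.

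The genes and lists were chosen with earlier results of these data known. All 10 genes are named, and of each list up to 3 genes with the smallest p against normal lung, besides 12 partners named in every case; 1 gene that this rule names is not reported here.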

Additional observations from a re-analysis of the deposited data

Results flagged for a closer look

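Each gene's log2 CPM was searched for a library far from the rest of its group, in 20 groups of 4 lungs. Gaps and ranges were taken on this log2 scale, and 2 groups passed Dixon's critical value of 0.829, where chance gives about 1 in 20. Trem2 in tumor-bearing lung 6877, the only one of batch 2, was the highest of its group at 4.35 CPM, with a gap to the nearest lung of 0.883 of the group's range. C1qb in tumor-bearing lung 6879 was the lowest of its group at 5.47 CPM, with a gap of 0.943 of the range.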

How the results depend on the processing

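Against normal lung, all 10 genes kept their direction in all 16 alternatives, but the Apoe call was lost in 10 of them and that of Ly6c2 with log2(TPM + 1) (adjusted p = 0.0562). Against tumor-bearing lung the calls of Apoe were lost in 9 of 23 alternatives, those of Trem2 in 3 and that of Gpnmb with log2(TPM + 1), and Ly6c2 was called in 3. With the mouse as a block and a batch term, 8607 genes and 9 of the 10 were called against tumor-bearing lung, and 7810 and 8 with the 6 libraries of the 3 paired mice, beside 8471 and 9; Apoe was the only call of the 10 that the block changed. With log2(TPM + 1), 5322 genes were called in that comparison, 4142 higher and 1180 lower. TPM shifts the median of all genes, to 0.22 against tumor-bearing lung with a pseudocount of 0.1, and to −0.23 and −0.54 between lungs with 1 and 0.1.

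Between lungs the 6 called genes became 275 without a filter, 445 with DESeq2, 90 and 65 with log2(TPM + 1) and log2(TPM + 0.1), of which 4 and 4 were higher, 1 without a batch term, 1 with the batch 2 libraries of normal mice 6886 and 6888, 39 in batch 1 alone and 42 with all 10 lung libraries. Leaving out a lung gave 0 to 221 genes, and 0 to 1 of the 10; the 221 and the 1, Gpnmb, were without tumor-bearing lung 6877. Signs between lungs turned with log2(TPM + 1) for Arg1 (−0.030), Trem2 (−0.059), F13a1 (−0.053), Cd14 (−0.056), C1qc (−0.29) and Ccr2 (−0.013), and with log2(TPM + 0.1) for the same genes (−0.19, −0.25, −0.23, −0.17, −0.57 and −0.076). C1qc was −0.00096 without a filter and −0.0021 with DESeq2. With those batch 2 libraries Arg1 was −0.080, Gpnmb 0.75, C1qa 0.011, C1qb 0.25 and Apoe 0.062, and in batch 2 alone −0.084, 0.74, 0.0054, 0.24 and 0.057. The former fit has no normal lung in batch 1, so both set only tumor-bearing lung 6877 against the normal lungs. They are nearly the same comparison. Leaving out a lung gave −0.021 to 0.36 for Arg1, −0.33 to 0.081 for C1qb and −0.18 to 0.29 for C1qc. In the tumors against normal lung, leaving out a library gave −1.17 to 0.19 for Nos2 and −0.15 to 0.34 for Tlr4. The causes were not tested.

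Relative to other macrophage genes, in alternatives chosen after seeing the data, Csf1r, Adgre1 and Cd68 as the reference gave 0.91 for Trem2, 3.51 for F13a1, 2.30 for Cd14 and 0.15 for Apoe, and log2(TPM + 0.1) gave −2.51 for Gpnmb and 2.73 for F13a1. Leaving out a library gave −0.39 to 0.085 for Apoe, the highest without tumor 6880. With 3 tumors from 1 cell line and 1 preparation batch, and 1 tumor-bearing lung in that batch, batch and tissue cannot be told apart for tumors against 3 of the 4 tumor-bearing lungs. The labels do not say which RNA was fragmented. Counts of about 1 CPM, as for Arg1 in lungs and Gpnmb in tumors, limit how well their fold changes are known.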
